A study of Caenorhabditis elegans with 32 samples.

Results

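The genes described here are the major sperm proteins and the small gene families that travel with them in C. elegans sperm. A gene was taken when its WormBase symbol begins with msp, ssp, nspd or smz, or is gsp-3 or gsp-4, and it was read by a single probe, the one whose signal averaged highest across the arrays. The rule gave 52 genes of the 25509 tested, namely 27 msp, 11 ssp, 10 nspd, 2 smz and 2 gsp genes. The gene table holds 64 genes that meet the rule. The remaining 12 (msp-10, msp-53, msp-57, msp-58, msp-65, msp-71, msp-77, msp-113, ssp-9, ssp-28, nspd-11 and nspd-12) had no probe named for them and were not analysed here. No sequence of a probe or a gene was at hand, so none is shown.

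Major sperm protein (MSP) takes the place of actin in the crawling sperm of nematodes, where its filaments grow at the leading edge and push the cell forward. Released from sperm, MSP is also the hormone that tells oocytes to mature and the gonadal sheath to contract. Hermaphrodites make their sperm as late larvae and then switch to oocytes for the rest of life, so that the number of self-sperm can only fall during adulthood. The genes are transcribed in spermatocytes, and the mature sperm cell is held to be transcriptionally silent. The ssp genes encode small sperm-specific proteins with an MSP-like fold, the nspd genes a nematode-specific family of short peptides, the smz genes PDZ-domain proteins of sperm meiosis, and gsp-3 and gsp-4 the near-identical protein phosphatase 1 enzymes of the male germ line, needed in sperm meiosis and for sperm movement.

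RNA of whole worms collected at day 7 was hybridized to 32 single-colour Agilent arrays, 4 for each of 8 groups. Besides the wild type N2 there was a csa-1 mutant (allele tm4539), a csb-1 mutant (allele ok2335) and the double mutant with both alleles, csa-1(tm4539);csb-1(ok2335). They are called csa-1, csb-1 and double mutant below. The csa-1 and csb-1 genes are the worm counterparts of the human Cockayne syndrome genes, which act in transcription-coupled DNA repair. Each strain received water (vehicle) or 500 µM nicotinamide riboside (NR), a precursor of NAD, from the last larval stage on, and the worms of all groups were kept at 25 °C. The general methods of the study describe a drug that blocks egg production (FUDR) for worms of all experiments unless otherwise noted, while the array methods do not mention it. Each mutation was represented by a single allele. The labels give 4 arrays per group and the methods 3 biological replicates, so that p-values measure the spread between these arrays, which may in part be technical. The 4 arrays of a group lay on a slide of their own, and slide and group cannot be told apart.

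Between 46.9% and 78.4% of gene spots were well above background on an array, and the 75th percentile of the intensity ran from 565 to 3883 arbitrary units. N2 vehicle replicate 1 had the lowest share above background. The arrays with the lowest 75th percentile of a strain were all vehicle arrays (N2 replicate 2, csa-1 replicate 2, csb-1 replicate 4 and double mutant replicate 1). There were 4 arrays that went against their labels at the probes of the mutated genes. The csa-1 probe, whose place relative to the deleted part of the gene is not known here, had Z-scores of −0.63 to −0.26 on 13 of the 16 arrays labelled csa-1 or double mutant and of −0.20 to 0.19 on 15 of the 16 labelled N2 or csb-1. The exceptions were N2 vehicle replicate 3 at −0.44, csa-1 vehicle replicates 3 and 4 at −0.01 and −0.14, and csa-1 NR replicate 4 at 0.21. The csb-1 probe that was low on every array of csb-1 and the double mutant (−1.40 to −0.55) lay at −1.22 on csa-1 NR replicate 4, against −0.05 to 0.00 on the other 3 csa-1 NR arrays. N2 vehicle replicate 3 stood apart in the genes described here and was the lowest of the 4 N2 vehicle arrays for 47 of the 52. Over all genes the N2 vehicle arrays were the least alike of any group, with a mean correlation to the other arrays of their group of 0.950 to 0.966 across genes, and N2 vehicle replicate 3 correlated more with the double mutant vehicle arrays (0.979) than with its own group (0.958), as the other 3 did with csb-1 vehicle or N2 NR arrays. Some arrays of csa-1, csb-1 vehicle and double mutant vehicle were also closer to another group than to their own. Among them csa-1 NR replicate 4 correlated more with the csb-1 NR arrays (0.980) than with its own group (0.976). Groups are named as the labels name them, and every direction given for csa-1 or against N2 on vehicle rests on those labels. Counts without the 4 arrays, left out after the values had been seen, stand beside each comparison, with 2 arrays then left in csa-1 vehicle and 3 each in N2 vehicle and csa-1 NR. The 4 include the N2 vehicle array with the lowest mean over the 52 genes and the 2 csa-1 vehicle arrays with the highest.

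All levels are Z-scores, that is, the log2 intensity of a probe minus the mean of its array, divided by the SD of that array. A Z-score difference of 1 corresponds on average to 3.74 on the log2 scale. The SD of single arrays ran from 3.17 to 4.00, so log2 changes and folds are approximate. Probes differ in how well they bind, so levels are compared between groups and not between genes. Of the 52 probes, 42 were well above background on all 32 arrays. The gene ssp-19 was above it on 9 arrays and on no array of csa-1 NR, csb-1 vehicle or double mutant vehicle, so no change is given for it. It is still included in all counts and medians over the 52 genes and over the ssp genes.

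The levels of most of the 52 genes varied together across the arrays. The median correlation between pairs of them was 0.925 over the 32 arrays and 0.836 after the mean of each group was removed, and 42 of them had a correlation above 0.9 with the mean of the others. These figures describe values that share arrays, and the msp genes in particular share so much sequence that a probe may bind the transcripts of several of them. The pseudogenes msp-37, msp-42 and msp-52 had probes well above background on every array, and their transcripts cannot be told from those of intact copies with these data. Several probes were present for 15 genes, and their 25 further probes had a median correlation of 0.976 (lowest 0.752) with the one used, and all 25 were higher on NR than on vehicle in each strain. The genes that followed least were nspd-8, ssp-37, ssp-32, ssp-36 and smz-2, whose correlations with the mean of the others were −0.40, 0.47, 0.55, 0.62 and 0.62.

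On vehicle, the mean Z-score over the 52 genes was 0.89, 0.89, 0.47 and 0.93 on the N2 arrays (mean 0.79 ± 0.22, SD, n = 4), 0.51, 0.46, 0.81 and 0.76 on the csa-1 arrays (0.63 ± 0.18), 0.56, 0.59, 0.62 and 0.52 on the csb-1 arrays (0.57 ± 0.04) and 0.73, 0.77, 0.70 and 0.74 on the double mutant arrays (0.73 ± 0.03). Apart from N2 replicate 3, the N2 arrays lay above every array of the mutants, whereas that array lay below every csb-1 and double mutant array. The csa-1 arrays fell into a lower pair (replicates 1 and 2) and a higher pair (replicates 3 and 4). The higher pair was the one that went against its label at the csa-1 probe, at −0.01 and −0.14 where the lower pair read −0.36 and −0.62, and the low N2 replicate 3 went against its label there too. On NR the means were 0.98, 0.99, 0.99 and 1.02 in N2 (0.99 ± 0.02), 0.78, 0.79, 0.89 and 0.92 in csa-1 (0.85 ± 0.07), 0.92, 0.95, 0.92 and 0.89 in csb-1 (0.92 ± 0.03) and 1.01, 1.003, 1.04 and 1.01 in the double mutant (1.02 ± 0.01). In N2, csb-1 and the double mutant the NR arrays lay above all vehicle arrays of the strain. In csa-1 the lower NR arrays overlapped the higher vehicle arrays. In a whole-body sample fewer sperm or spermatocytes and less of these RNAs per cell cannot be told apart.

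**Figure D1:**
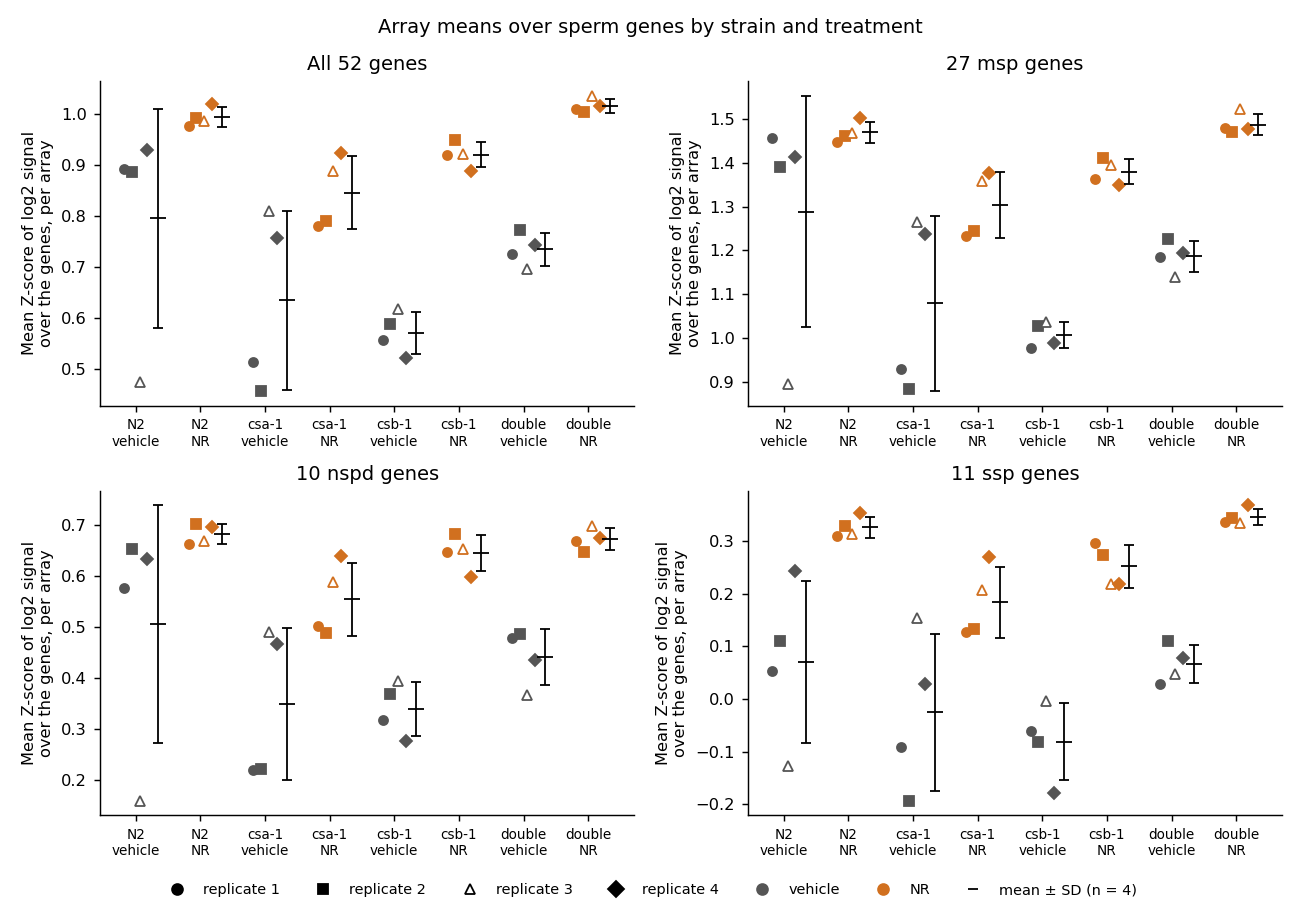
Mean Z-score of log2 signal over all 52 genes and over the msp, nspd and ssp genes, on each of the 32 arrays, with vehicle arrays in grey, NR arrays in orange, a symbol for each replicate number, and the mean and SD of each group (n = 4) beside them. Over all 52 genes the N2 NR arrays lie between 0.98 and 1.02, while N2 vehicle replicate 3 lies at 0.47, below the other N2 vehicle arrays at 0.89 to 0.93.

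Among the 8 group means, the highest was that of double mutant NR for 35 of the 52 genes and that of N2 NR for 15. The lowest was that of csb-1 vehicle for 42 genes and that of csa-1 vehicle for 7. The spread between replicate arrays also differed between groups. The median SD of a gene's Z-score was 0.24 in N2 vehicle and 0.20 in csa-1 vehicle, and 0.03 to 0.08 in the other 6 groups. The test uses a single spread per gene for all groups, so that the arrays of those 2 groups enter every p-value, and counts from fits on the compared groups alone are given as well.

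The first comparison asks what NR does to these genes in each strain. Each strain had some of the 52 genes called higher on NR, but no gene was called in all 4 strains. The differences between strains have a test of their own, given further on. A gene was called when its adjusted p (limma, Benjamini-Hochberg over all 25509 genes) was at most 0.05, its Z-ratio, the change divided by the SD of all changes, was at least 1.5 in size and the mean Z-score of the groups was above 0, a limit that 43 to 46 of the 52 genes met in these comparisons. In csb-1 38 of the 52 were called higher, where 1.01% of all genes were called higher, and the median change of the 52 was 1.36 on the log2 scale (all genes −0.02). In the double mutant 27 were called higher, where 0.886% of all genes were called higher, with a median of 1.11 (all genes 0.00). In csa-1 5 were called higher (msp-36, msp-38, nspd-1, nspd-7 and ssp-35), against 1.56% of all genes, with a median of 0.82 (all genes 0.02). In N2 2 were called higher (gsp-4 and nspd-9), against 0.517% of all genes, with a median of 0.72 (all genes 0.00). None of the 52 (0) was called lower on NR in N2, csa-1, csb-1 or the double mutant, where 0.353%, 0.635%, 0.494% and 1.39% of all genes were called lower.

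The group mean on NR was higher than that on vehicle for 51 of the 52 genes in each of the 4 strains, the exception in each being nspd-8. An unadjusted p below 0.05 was reached by 33 genes in N2, where 12.7% of all genes reached it, by 44 in csa-1 (20.5% of all genes), and by 50 each in csb-1 (20.1%) and the double mutant (16.9%). The 4 NR arrays all lay above the 4 vehicle arrays for 20 genes in N2 (3.92% of all genes), 8 in csa-1 (6.08%), 50 in csb-1 (10.9%) and 51 in the double mutant (9.58%). Called genes were partly shared. Of the 38 genes called in csb-1 65.8% were also called in the double mutant, and of the 27 called in the double mutant 92.6% were also called in csb-1. No gene was called in all 4 strains (0), 5 in 3 of them (gsp-4, msp-36, msp-38, nspd-1 and ssp-35), 21 in 2 and 15 in 1, and 11 were called in none. Counts in N2, csa-1 and the double mutant moved with single arrays. For fits without single arrays, on a strain's arrays alone or with other processing, the share of all genes called is not given. Those counts show how far the calls moved, and not whether the 52 genes moved more than other genes. In the double mutant 6 to 8 genes were called without any 1 of its 8 arrays other than vehicle replicate 2, and 18 without that array, whereas a fit on its arrays alone called 43. In csa-1 20 were called without vehicle replicate 3, 5 without vehicle replicate 4, 1 or 2 without any other 1 of its arrays (1 without NR replicate 4) and 0 in a fit on its arrays alone, where 30 had an unadjusted p below 0.05. In N2 7 were called without vehicle replicate 4, 0 to 2 without any other 1 of its arrays and 0 in a fit on its arrays alone, where 13 had an unadjusted p below 0.05. In csb-1 the lowest counts were 23 without NR replicate 2 and 25 without vehicle replicate 1, and a fit on its arrays alone called 41. The order of csb-1 and the double mutant turned with the processing, since 37 and 39 were called with scaling by the 75th percentile and 37 and 39 with quantile normalization. With normexp background correction the median in the double mutant was 0.63 and 24 genes had an unadjusted p below 0.05. Without the 4 arrays against their labels 1 gene was called in N2, gsp-4 (0.478% of all genes called higher), 39 in csa-1 (1.51%), 41 in csb-1 (1.4%) and 43 in the double mutant (1.08%), with a median of 1.36 in csa-1.

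Averaged over the 4 strains, a contrast chosen after the values had been seen, 45 of the 52 genes were called higher and 0 lower (1.52% of all genes called higher, 1.17% lower), with a median log2 change of 1.01, that is, 2.01-fold, against 0.00 for all genes. All 27 msp genes, 9 of 10 nspd genes, 5 of 11 ssp genes and both smz and both gsp genes were called. Counting by adjusted p alone, 51 of the 52 passed (8.5% of all genes passed and were higher), leaving nspd-8. The count was 44 or 45 without any single array, 44 without N2 vehicle replicate 3 (1.57% of all genes called higher) and 45 without csa-1 NR replicate 4. It was 45 without the 4 arrays against their labels (1.5% of all genes), 43 with scaling by the 75th percentile and 40 with normexp.

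**Figure D2:**
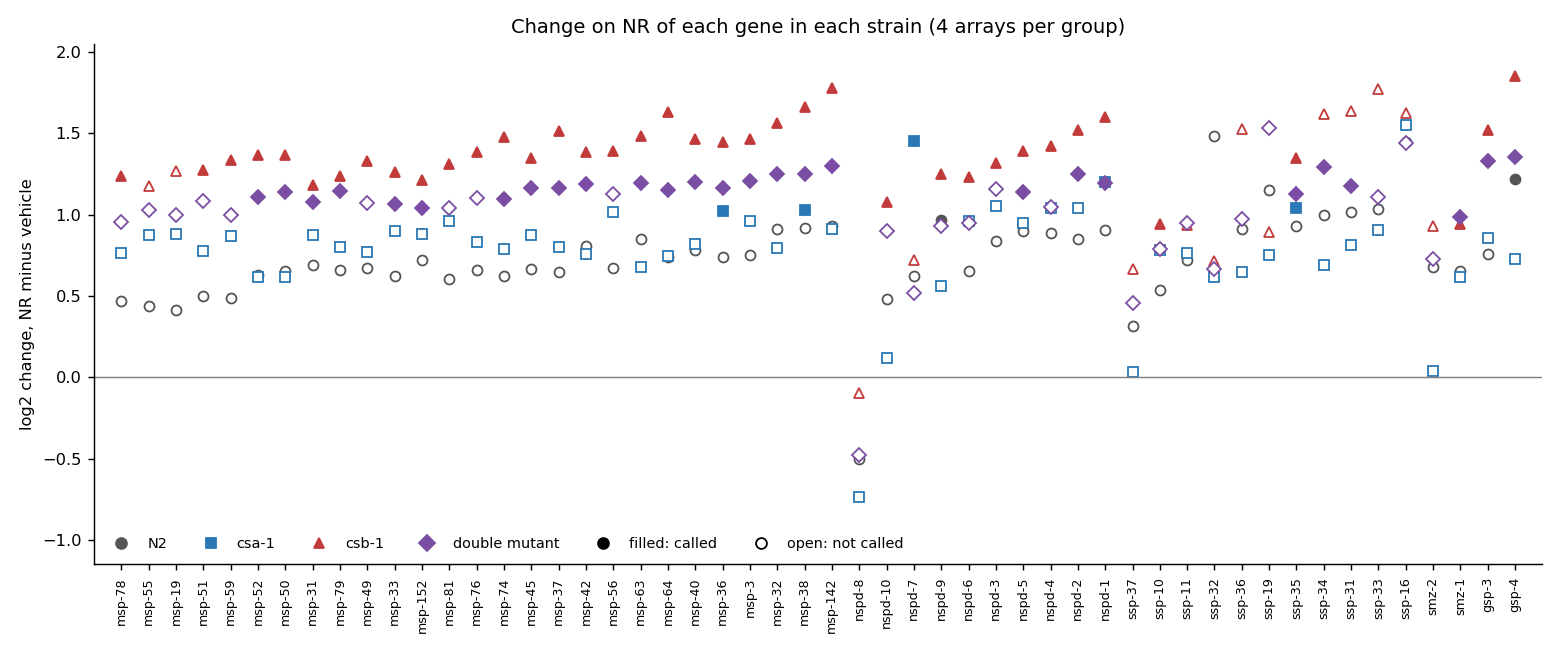
Log2 change on NR (NR minus vehicle, 4 arrays per group) of each of the 52 genes in N2, csa-1, csb-1 and the double mutant, ordered by family and by the mean over strains, with filled symbols for called changes. The genes lie above 0 in every strain but for nspd-8, and the csb-1 symbol is the highest of the 4 for each of the 27 msp genes.

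The msp genes encode the filament protein itself. In csb-1 25 of 27 were called higher, with log2 changes of 1.18 to 1.78, and the other 2 (msp-19 and msp-55, named after their values had been seen) had adjusted p of 0.051 and 0.063 (limma). The double mutant had 18 of 27 called, 13 of the 14 on chromosome II and 5 of the 13 on chromosome IV, where the medians were 1.16 and 1.102. In csa-1 2 of 27 were called and the median was 0.83. In N2 0 of 27 were called and the median was 0.67, with 14 at an unadjusted p below 0.05. This rested on N2 vehicle replicate 3, without which the median of the msp genes in N2 was 0.16, 5 of the 27 were lower on NR and 0 reached that p (limma).

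The gene msp-38 had the smallest p of the 52 in the comparison of csb-1 with N2 on vehicle, and its values show the pattern on NR. Its Z-score in csb-1 was 0.49, 0.54, 0.60 and 0.49 on vehicle and 0.95, 1.04, 0.96 and 0.95 on NR. The groups did not overlap, and the change was 1.66 ± 0.31 (SE) on the log2 scale or 3.17-fold (limma, adjusted p = 0.00183). In csa-1 the vehicle arrays read 0.52, 0.42, 0.85 and 0.76 and the NR arrays 0.83, 0.88, 0.96 and 0.98, which overlap in replicate 3 of vehicle and replicate 1 of NR. There msp-38 was raised 2.04-fold (1.03 ± 0.31, limma, adjusted p = 0.0465). Double mutant arrays read 0.74, 0.80, 0.73 and 0.82 on vehicle and 1.12, 1.11, 1.13 and 1.09 on NR, a 2.38-fold rise (limma, adjusted p = 0.0144) with no overlap. In N2 the arrays read 0.98, 0.92, 0.47 and 0.96 on vehicle and 1.07, 1.07, 1.06 and 1.11 on NR, and the change of 0.92 ± 0.31 was not called (limma, adjusted p = 0.129).

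The msp probes with the highest and the lowest mean signal, msp-78 and msp-142, gave the same picture in csb-1. For msp-78 the vehicle arrays read 1.58, 1.60, 1.61 and 1.67 and the NR arrays 1.92, 1.98, 1.99 and 1.90, a 2.36-fold rise (limma, adjusted p = 0.0346). For msp-142 the vehicle arrays read 0.12, 0.10, 0.10 and −0.01 and the NR arrays 0.54, 0.51, 0.63 and 0.52, a 3.43-fold rise (limma, adjusted p = 0.0035). NR and vehicle did not overlap for either gene. Likewise in the double mutant msp-142 rose 2.46-fold (limma, adjusted p = 0.03), while msp-78, at 1.85, 1.77, 1.69 and 1.75 on vehicle and 2.01, 1.97, 2.07 and 2.02 on NR, was not called (0.95 ± 0.35 on the log2 scale, limma, adjusted p = 0.123). In N2 the vehicle arrays of msp-78 read 2.17, 2.04, 1.48 and 1.99 against 2.03, 2.03, 2.03 and 2.09 on NR, so that vehicle replicates 1 and 2 lay above 3 of the 4 NR arrays.

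The phosphatase genes gsp-3 and gsp-4 were among the genes with the largest changes. The N2 arrays of gsp-4 read 0.02, 0.04, −0.08 and 0.14 on vehicle and 0.32, 0.30, 0.37 and 0.43 on NR. This was the larger of the 2 called changes in N2, at 1.22 ± 0.28 or 2.33-fold (limma, adjusted p = 0.0199), with no overlap. In csb-1 gsp-4 read −0.11, −0.09, −0.06 and −0.34 on vehicle and 0.29, 0.40, 0.34 and 0.36 on NR, a 3.61-fold rise (limma, adjusted p = 0.000346), the largest fold of any of the 52 genes in any strain. In the double mutant it rose 2.55-fold (limma, adjusted p = 0.00439), from 0.07, 0.18, 0.23 and 0.21 to 0.53, 0.60, 0.50 and 0.52. In csa-1 the groups overlapped and the change of 0.73 ± 0.28 was not called. For gsp-3 the csb-1 arrays read 0.09, 0.14, 0.15 and 0.12 on vehicle and 0.53, 0.53, 0.52 and 0.54 on NR, a 2.87-fold rise (limma, adjusted p = 0.00272). In the double mutant gsp-3 rose 2.51-fold (limma, adjusted p = 0.0072), and in N2 and csa-1 its changes of 0.76 and 0.86 were not called. The near-identity of these genes means that each probe may also read the other transcript. The phosphatase 1 genes used outside sperm, gsp-1 and gsp-2, were called in no strain on NR (0 of 2 in each; the median of the pair ran from −0.29 in csa-1 to 0.21 in the double mutant).

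Among the nspd genes 8 of 10 were called higher in csb-1, 3 in the double mutant (nspd-1, nspd-2 and nspd-5), 2 in csa-1 and 1 in N2. The gene nspd-6, whose probe had the highest mean signal of the family, read 0.76, 0.85, 0.84 and 0.82 on vehicle and 1.17, 1.17, 1.14 and 1.101 on NR in csb-1, a 2.35-fold rise (limma, adjusted p = 0.0267). The order of strains was another for nspd-7. It was raised 2.74-fold in csa-1 (1.46 ± 0.32, limma, adjusted p = 0.00695), with 0.32, 0.14, 0.59 and 0.43 on vehicle and 0.70, 0.77, 0.72 and 0.85 on NR and no overlap. In csb-1 nspd-7 read 0.55, 0.72, 0.64 and 0.56 on vehicle and 0.77, 0.91, 0.81 and 0.74 on NR and was not called (0.72 ± 0.32, limma, adjusted p = 0.205). The second nspd gene called in csa-1, nspd-1, rose 2.30-fold there (limma, adjusted p = 0.0459) from 0.36, 0.31, 0.77 and 0.71 to 0.80, 0.75, 0.89 and 0.99, with an overlap between the groups.

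In N2 nspd-9 was called (1.95-fold, limma, adjusted p = 0.0472), with −0.13, 0.16, −0.30 and 0.11 on vehicle and 0.20, 0.26, 0.24 and 0.17 on NR. The vehicle arrays spread widely, and without N2 vehicle replicate 3 the change was 0.64 and no longer called. The gene nspd-10 rose in csb-1 (2.11-fold, limma, adjusted p = 0.0253) and had a change of 0.12 ± 0.28 in csa-1. The probe of nspd-8 was dim, well above background on 24 of 32 arrays and on 1 of 4 in N2 NR. Its group mean was lower on NR in each strain, by log2 changes of −0.73 to −0.10 with an SE of 0.42. With a highest array at −0.35 nspd-8 lay below the limit on mean signal and could not be called in any strain.

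**Figure D3:**
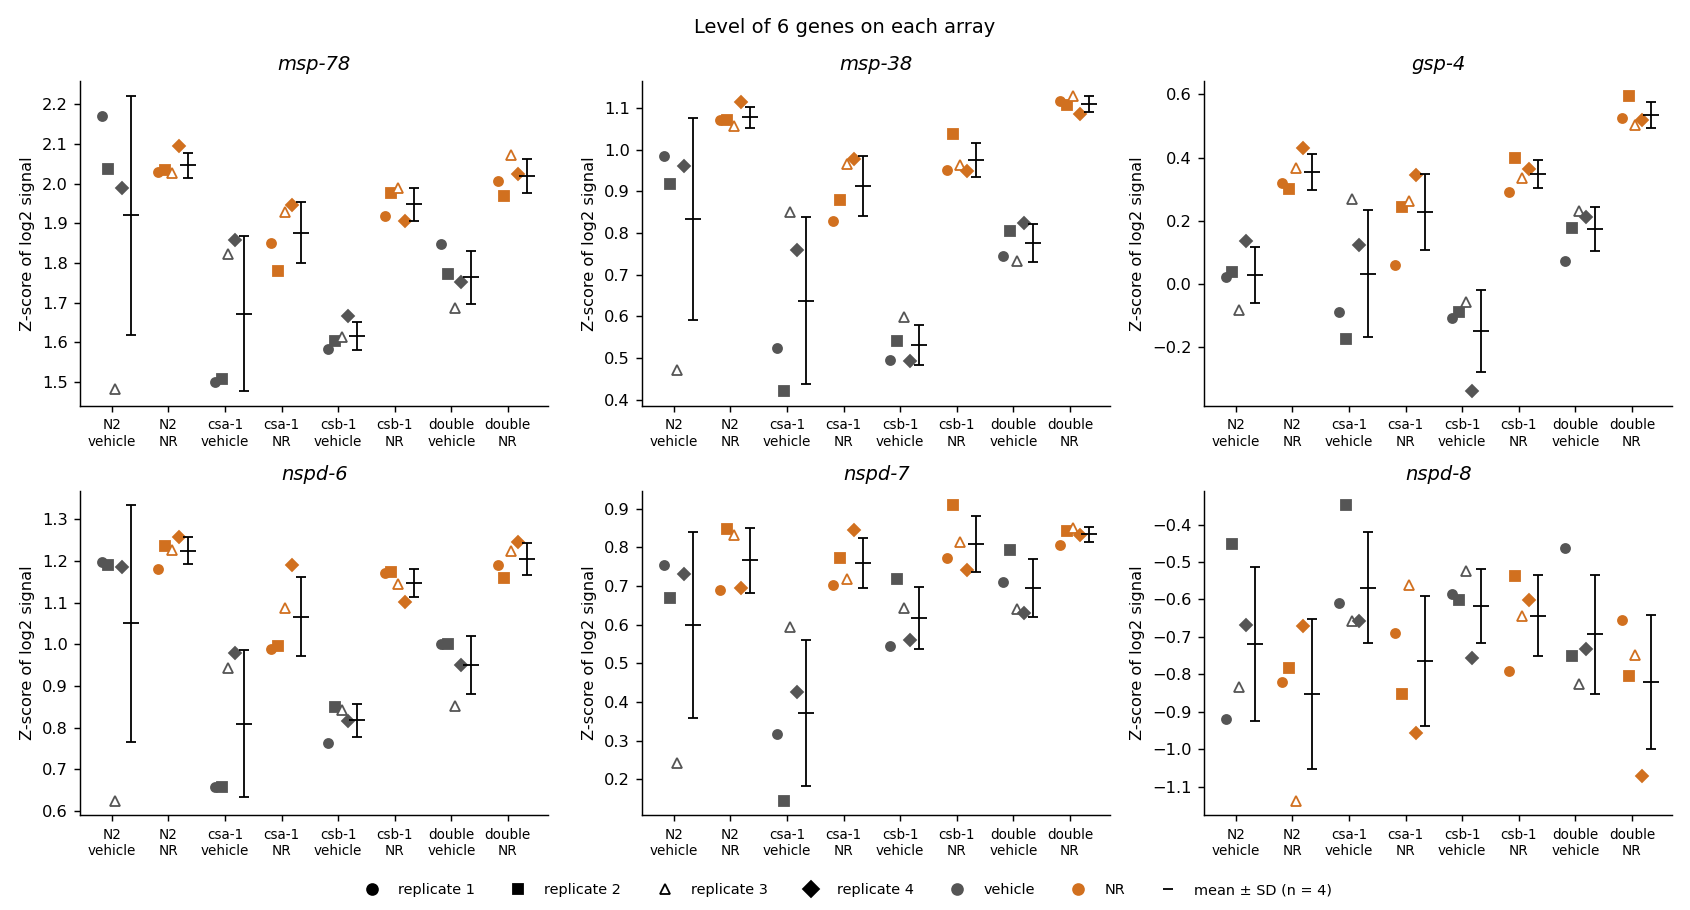
Z-score of log2 signal of msp-78, msp-38, gsp-4, nspd-6, nspd-7 and nspd-8 on each array, with vehicle in grey, NR in orange, a symbol for each replicate number and the mean and SD of each group (n = 4). The csb-1 arrays of msp-38 separate by treatment, at 0.49 to 0.60 on vehicle and 0.95 to 1.04 on NR, whereas the groups of nspd-8 overlap in every strain.

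Of the 11 ssp genes 2 were called higher in csb-1 (ssp-10 and ssp-35), 3 in the double mutant (ssp-31, ssp-34 and ssp-35), 1 in csa-1 and 0 in N2, with median log2 changes of 1.35, 1.11, 0.77 and 0.999. Several ssp probes were too dim for the limit on mean signal. The gene ssp-35 passed, and was called in csa-1 (2.06-fold, limma, adjusted p = 0.0291), csb-1 (2.54-fold, limma, adjusted p = 0.00534) and the double mutant (2.18-fold, limma, adjusted p = 0.0182). The dim ssp-32 had the smallest adjusted p of all 52 genes in N2 (1.48 ± 0.26, limma, adjusted p = 0.00257) and was not called because its mean Z-score was below 0. The gene ssp-10, whose probe had the highest mean signal of the family, read 0.86, 0.84, 0.88 and 0.94 on vehicle and 1.09, 1.18, 1.21 and 1.06 on NR in csb-1, a 1.93-fold rise (limma, adjusted p = 0.0382). Its relative ssp-11 just missed the threshold there (0.94 ± 0.28, limma, adjusted p = 0.0543) and in the double mutant (0.95 ± 0.28, limma, adjusted p = 0.0501). Both ssp-35 and ssp-32 were singled out after their values had been seen.

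Of the PDZ-domain genes, smz-1 rose 1.93-fold in csb-1 (limma, adjusted p = 0.00299) and 1.98-fold in the double mutant (limma, adjusted p = 0.00218). Double mutant arrays read 0.29, 0.30, 0.34 and 0.32 on vehicle and 0.58, 0.59, 0.57 and 0.56 on NR. The groups lay far apart for their spread. For smz-2 the change was called in no strain, and it ran from 0.04 ± 0.26 in csa-1 to 0.93 ± 0.26 in csb-1. In csb-1 smz-2 passed the adjusted p (limma, adjusted p = 0.0324) with no overlap between the groups. It was not called there because it missed another limit of the call rule.

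Whether NR acted differently in the mutants than in N2 was tested as an interaction, called at an adjusted p of at most 0.05. The NR change of csa-1, csb-1 and the double mutant minus that of N2 had a median of 0.11, 0.64 and 0.38 on the log2 scale. The test called 0 of the 52 genes in each (limma, where 0.0235%, 0.0314% and 0.0157% of all genes were called higher), and 1 gene in each had an unadjusted p below 0.05 (8.9%, 7.02% and 6.54% of all genes). That gene, ssp-32, ran the other way, with a change of 1.48 in N2 and differences of −0.86, −0.77 and −0.81. Without any other single array than N2 vehicle replicate 3 the csa-1 median ran from −0.11 to 0.34, and it was below 0 without N2 vehicle replicate 1, 2 or 4 or csa-1 vehicle replicate 1 or 2. The double mutant median was 0.20 without N2 vehicle replicate 1, 0.25 without replicate 2, 0.20 without replicate 4 and 0.01 with normexp. Without N2 vehicle replicate 3 these medians were 0.55, 1.099 and 0.81, an unadjusted p below 0.05 was reached by 16, 41 and 31 genes, and 0 were called (1.1%, 0.0627% and 0.0431% of all genes called higher). Without that array the NR change within N2 itself had a median of 0.29, 1 gene was called, gsp-4 (0.349% of all genes called higher) and 12 had an unadjusted p below 0.05. The array was singled out by the values of these same genes, so the results with it and without it stand side by side. Without the 4 arrays against their labels the medians were 1.08, 1.099 and 0.81, and 30, 32 and 22 genes were called higher (1.56%, 0.494% and 0.388% of all genes). Those arrays include the N2 vehicle array lowest for the 52 genes (0.47) and the csa-1 vehicle arrays highest for them (0.81 and 0.76). Leaving out such arrays raises these differences by itself.

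The second comparison sets each mutant against N2 on vehicle. With all arrays, 0 of the 52 genes were called in csa-1 (0.51% of all genes called lower), 0 in csb-1 (0.486%) and 0 in the double mutant (0.184%). The group means were nonetheless mostly below those of N2, for 46 of 52 genes in csa-1, 49 in csb-1 and 43 in the double mutant, with median log2 changes of −0.74, −0.94 and −0.27 (all genes 0.03, 0.02 and 0.00). An unadjusted p below 0.05 was reached by 33, 45 and 3 genes, where 27.8%, 10.3% and 19.6% of all genes reached it. In fits on the compared groups alone, for which the share of all genes is not given, 0, 19 and 0 genes reached it. The 33 genes of csa-1 came down to 3 without N2 vehicle replicate 1, 12 without replicate 2 or replicate 4, 5 without csa-1 vehicle replicate 1 and 3 without csa-1 vehicle replicate 2, with medians of −0.62 to −0.47. In the double mutant the median was −0.15, −0.18 and −0.13 without N2 vehicle replicate 1, 2 or 4. The 3 in the double mutant were nspd-10, at −0.62, and ssp-32 and smz-2, which lay above N2 at 0.56 and 0.55.

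This outcome turned on N2 vehicle replicate 3. Without it 34 genes were called lower in csa-1 (2.11% of all genes called lower), 39 in csb-1 (1.45%) and 8 in the double mutant (0.463%), with median changes of −1.19, −1.38 and −0.73. All 27 msp genes were called lower in csb-1, 24 in csa-1 and 8 in the double mutant. Of the nspd genes 7 of 10 were called in each single mutant and 0 in the double mutant, and of the ssp genes ssp-10, ssp-11 and ssp-35 in each single mutant and 0 in the double mutant. Leaving out any 1 of the other 3 N2 vehicle arrays called 0 genes in each mutant. Without the 4 arrays against their labels 39 genes were called lower in csa-1 (1.86% of all genes called lower), 39 in csb-1 (1.59%) and 8 in the double mutant (0.451%), with medians of −1.82, −1.38 and −0.73.

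Taking msp-38, the N2 vehicle arrays read 0.98, 0.92, 0.47 and 0.96, the csb-1 arrays 0.49, 0.54, 0.60 and 0.49 and the double mutant arrays 0.74, 0.80, 0.73 and 0.82. Replicate 3 of N2 was below all 8 of these mutant arrays and the other 3 above all of them. The change in csb-1 was −1.13 ± 0.31 (limma, adjusted p = 0.0778) with all arrays and −1.58 ± 0.24 (limma, adjusted p = 0.000276) without that array. For ssp-10, the gene nearest the threshold in csa-1, the N2 arrays read 1.27, 1.14, 0.75 and 1.16 and the csa-1 arrays 0.76, 0.76, 0.99 and 0.93. The change was −0.81 ± 0.27 (limma, adjusted p = 0.0764) with and −1.22 ± 0.20 (limma, adjusted p = 0.00026) without N2 replicate 3. The gene nearest the threshold in the double mutant, nspd-10, read 0.31, 0.17, 0.18 and 0.21 there against 0.45, 0.55, 0.07 and 0.47 in N2, and its change of −0.62 ± 0.28 had an adjusted p of 0.232 (limma). The phosphatase gsp-4 was among the 9 genes above N2 in the double mutant. Its changes were 0.02, −0.66 and 0.54 in csa-1, csb-1 and the double mutant, and with replicate 3 left out it was called in none of them.

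**Figure D4:**
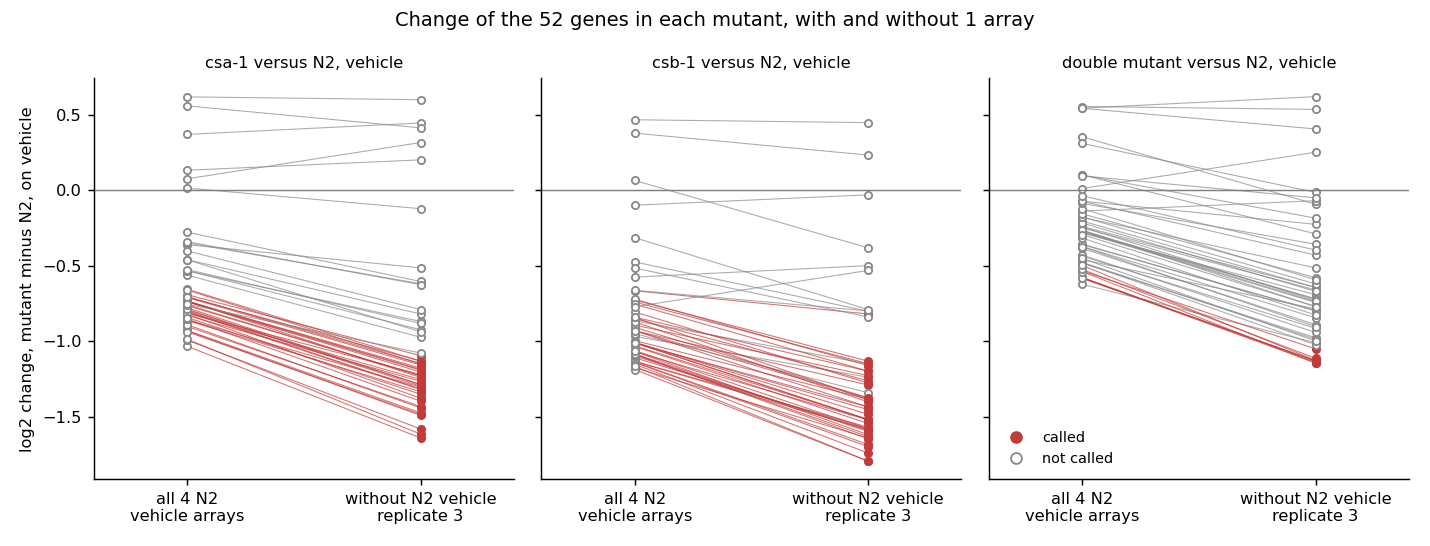
Log2 change of each of the 52 genes in csa-1, csb-1 and the double mutant against N2 on vehicle, with all 4 N2 vehicle arrays on the left of each panel and without N2 vehicle replicate 3 on the right, and red points for called changes. With all arrays 0 genes are called, and without that array 34, 39 and 8 are called lower.

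The double mutant was less low than the sum of the single mutants' changes. Tested on vehicle as the interaction between the csa-1 and csb-1 alleles, this came to a median of 1.36 on the log2 scale, with 49 of 52 genes above 0 and 45 at an unadjusted p below 0.05 (11.6% of all genes). With all arrays the test called 0 of the 52 (limma, lowest adjusted p = 0.14; 0.00392% of all genes called higher). Without N2 vehicle replicate 3 it called 43, all higher (2.69% of all genes called higher), with a median of 1.83, and without the 4 arrays against their labels 45 (4.23% of all genes), with a median of 2.45. N2 enters this contrast together with all 3 mutant groups.

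The third comparison sets each mutant against N2 on NR. The test called 0 of the 52 genes in csa-1 (0.0431% of all genes called lower), csb-1 (0.87%) and the double mutant (0.811%), with medians of −0.60, −0.32 and 0.07. An unadjusted p below 0.05 was reached by 17, 0 and 2 genes (13.4%, 16.6% and 14% of all genes). The 2 in the double mutant, gsp-4 and smz-2, lay above N2 at 0.68 and 0.60. In csa-1 the arrays of 32 genes lay wholly below those of N2 on NR, where 3.9% of all genes did, and in csb-1 those of 27 genes, where 9.24% of all genes did. An example is ssp-11, at 0.95, 0.96, 1.09 and 1.05 in csa-1 and 1.16, 1.26, 1.23 and 1.21 in N2. Of the 4 NR groups csa-1 NR had the lowest mean for 49 of the 52 genes. The 17 genes of csa-1 came down to 3 without csa-1 NR replicate 1, to 2 without replicate 2 and to 4 without N2 NR replicate 4, and without csa-1 NR replicate 4 there were 25 with a median of −0.72 and 0 called. The median of the double mutant was −0.07 with normexp.

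N2 vehicle replicate 3 is in no group compared on NR but enters the common spread. Fits on the compared groups alone again called 0 genes. An unadjusted p below 0.05 was reached in them by 44 genes in csa-1, 31 in csb-1 and 6 in the double mutant. In csb-1 msp-49, msp-79, msp-152 and ssp-11 then had an adjusted p of at most 0.05, with changes of −0.51 to −0.42. In the double mutant gsp-3, gsp-4 and smz-2, higher by 0.53 to 0.68, and nspd-9, at −0.49, also reached that limit. The share of all genes is not given for these fits, so these genes and counts are not set against other genes. In the fit of all 8 groups 1338 of the 25509 genes reached that adjusted p in csb-1 and 506 in the double mutant. None (0) of the genes described here did so in that fit. Without the 4 arrays against their labels 25 genes were called lower in csa-1 (0.412% of all genes called lower), 0 in csb-1 (1.13%) and 0 in the double mutant (1.15%), and 45, 27 and 4 had an unadjusted p below 0.05.

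Several sperm genes outside the rule moved with the 52. The msd genes encode proteins with a major sperm protein domain, and msd-1 and msd-3 were called higher on NR in csa-1, csb-1 and the double mutant, msd-2 in csb-1 and the double mutant and msd-4 in csa-1 and csb-1, with log2 changes of 1.09 to 1.70 where called. The fifth gene of that list, vpr-1, a VAP protein of many tissues whose cleaved MSP domain also acts as a signal, was called in no strain, with changes of −0.34 to 0.30. By correlation with the mean of the 52 over the 32 arrays the closest other genes were msrp-2 (0.992), msd-3 (0.991) and spch-2 (0.986), the last a sperm chromatin protein, and 145 of the 25457 other genes had a correlation above 0.9. These correlations share arrays with every result above.

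A list of 21 other sperm genes (spe genes and others needed for sperm formation or fertilization) was mostly too dim for the call rule, since 4 of the 21 had a mean Z-score above 0, and 0 were called on NR in each strain. Their array means were low (Z-scores of −0.59 to −0.18). In N2, csa-1, csb-1 and the double mutant 10, 5, 13 and 11 of them were higher at an unadjusted p below 0.05 and 0, 1, 1 and 1 lower, with median log2 changes of 0.42, 0.37, 0.55 and 0.53. The group means on NR were higher for 21, 13, 19 and 19 of the 21 genes in N2, csa-1, csb-1 and the double mutant. Against N2 on vehicle the median changes of this list were 0.03 in csa-1, −0.14 in csb-1 and 0.21 in the double mutant. At an unadjusted p below 0.05, 5, 1 and 2 of the 21 were higher there and 2, 4 and 0 lower. On N2 vehicle replicate 3 the list lay at −0.40, inside the range of its group (−0.56 to −0.37). The lowest array means in N2 and csb-1 were those of vehicle replicate 1 (−0.56) and vehicle replicate 4 (−0.59), which also had the lowest shares of spots above background in all, 46.9% and 53.1%. The part of dim arrays in this list was not tested. For the 52 genes those 2 arrays lay at 0.89 and 0.52, the first within the range of the other N2 vehicle arrays and the second the lowest of its group.

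Among 15 regulators of the switch between sperm and oocyte fate, fog-3, a gene required for germ cells to become sperm, was called higher on NR in N2 (1.78-fold, limma, adjusted p = 0.0178), csa-1 (1.97-fold, limma, adjusted p = 0.002) and the double mutant (1.97-fold, limma, adjusted p = 0.00234). In csb-1 it had a fold of 1.56 (limma, adjusted p = 0.0434) and fell short of the Z-ratio limit. The other gene called was fog-1, a germ line translational regulator of the same switch, in the double mutant (1.70-fold, limma, adjusted p = 0.041). The remaining 13 were not called on NR against vehicle in any strain. Group means on NR were higher for 10, 10, 6 and 13 of the 15 in N2, csa-1, csb-1 and the double mutant. The median log2 changes of the list were 0.13, 0.13, −0.09 and 0.34. At an unadjusted p below 0.05, 1, 1, 2 and 4 were higher and 0, 1, 3 and 0 lower. Against N2 on NR, elt-1 of this list was called higher in csb-1. A list of 17 genes around the MSP signal in oocyte and sheath shares oma-1, oma-2 and rme-2 with the oocyte list below. Of these 17, 1 was called on NR, kin-1, the catalytic subunit of protein kinase A, in csa-1 (0.84 ± 0.17, limma, adjusted p = 0.00324). Group means on NR were higher for 9, 5, 8 and 13 of the 17 in N2, csa-1, csb-1 and the double mutant. The medians were 0.02, −0.22, −0.02 and 0.20. At an unadjusted p below 0.05, 0, 1, 0 and 2 were higher and 0, 3, 2 and 0 lower. The receptor gene vab-1 was called in no strain, with changes of −0.30 to 0.65.

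Markers of other cells were measured beside these results. Of 16 oocyte genes 0 were called on NR in any strain, and their array means ran from 1.77 to 2.09 on vehicle and 1.62 to 1.94 on NR. In the double mutant 15 of the 16 were higher on NR, with a median of 0.37 and 4 at an unadjusted p below 0.05. Against N2 the oocyte list had medians below 0 in each mutant. On vehicle they were −0.37 in csa-1 (4 lower at an unadjusted p below 0.05), −0.08 in csb-1 and −0.50 in the double mutant (6), and on NR they were −0.48 in csa-1 (all 16 lower, 6 at that p), −0.24 in csb-1 and −0.11 in the double mutant, with 0 genes called. The part of oocytes in the results on sperm genes was not tested. Of 10 genes of male neurons and the male tract, which would mark stray males, 1 had a mean Z-score above 0 and could be called at all. At an unadjusted p below 0.05, 1 was higher on NR in csb-1, 1 lower in csa-1 and 2 lower in the double mutant, with array means of −0.68 to −0.43 and median changes on NR of −0.27 to 0.03. Of 9 embryo genes 0 were called in any of the 7 comparisons of NR with vehicle or of a mutant with N2 on vehicle. Between 4 and 7 of the 9 had a mean Z-score above 0 in the comparisons of NR with vehicle and could be called there. In N2, csa-1, csb-1 and the double mutant 1, 2, 4 and 0 of them were higher on NR at an unadjusted p below 0.05. In the double mutant 1 was lower, and the median changes in the 4 strains were 0.27, 0.21, 0.66 and −0.23. Against N2 on NR 4 were called higher in csb-1 (pes-10, sdz-28, tbx-37 and tbx-38, all transcripts of early embryos), with a median of the list of 1.08, and 0 in csa-1 and the double mutant, with medians of 0.75 and 0.27. The embryo list did move with the array that stood apart. It lay at 0.25 on N2 vehicle replicate 3 and at −0.25, −0.13 and −0.05 on the other N2 vehicle arrays, while on the mutant vehicle arrays it lay between 0.03 and 0.27. In the comparison with N2 on vehicle the median changes of the embryo list were 1.04, 0.65 and 0.94 in csa-1, csb-1 and the double mutant. At an unadjusted p below 0.05, 5, 2 and 6 of the 9 were higher there and 0 lower. The part of embryos or of the age of the worms in the results on sperm genes was not tested. Of 7 genes of muscle, gut, hypodermis and neurons, unc-54, the major myosin of body wall muscle, was called lower on NR in csa-1 (−1.34 ± 0.31, limma, adjusted p = 0.00983) and 0 of the 7 in the other strains. Over the mean of the 4 strains vit-2 was called lower on NR. Against N2 on NR, myo-3 was called lower in csb-1 and unc-54 higher in the double mutant. Of 6 genes of moulting larvae 0 were called on NR against vehicle in any strain. Over the mean of the 4 strains nas-37 was called higher on NR, and against N2 on NR mlt-10 was called higher in csb-1. Against N2 on vehicle the medians of this list were 0.82, 0.43 and 0.44 in csa-1, csb-1 and the double mutant, with 0 called. It lay at 0.25 on N2 vehicle replicate 3 and at −0.12, −0.20 and 0.14 on the other N2 vehicle arrays.

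**Figure D5:**
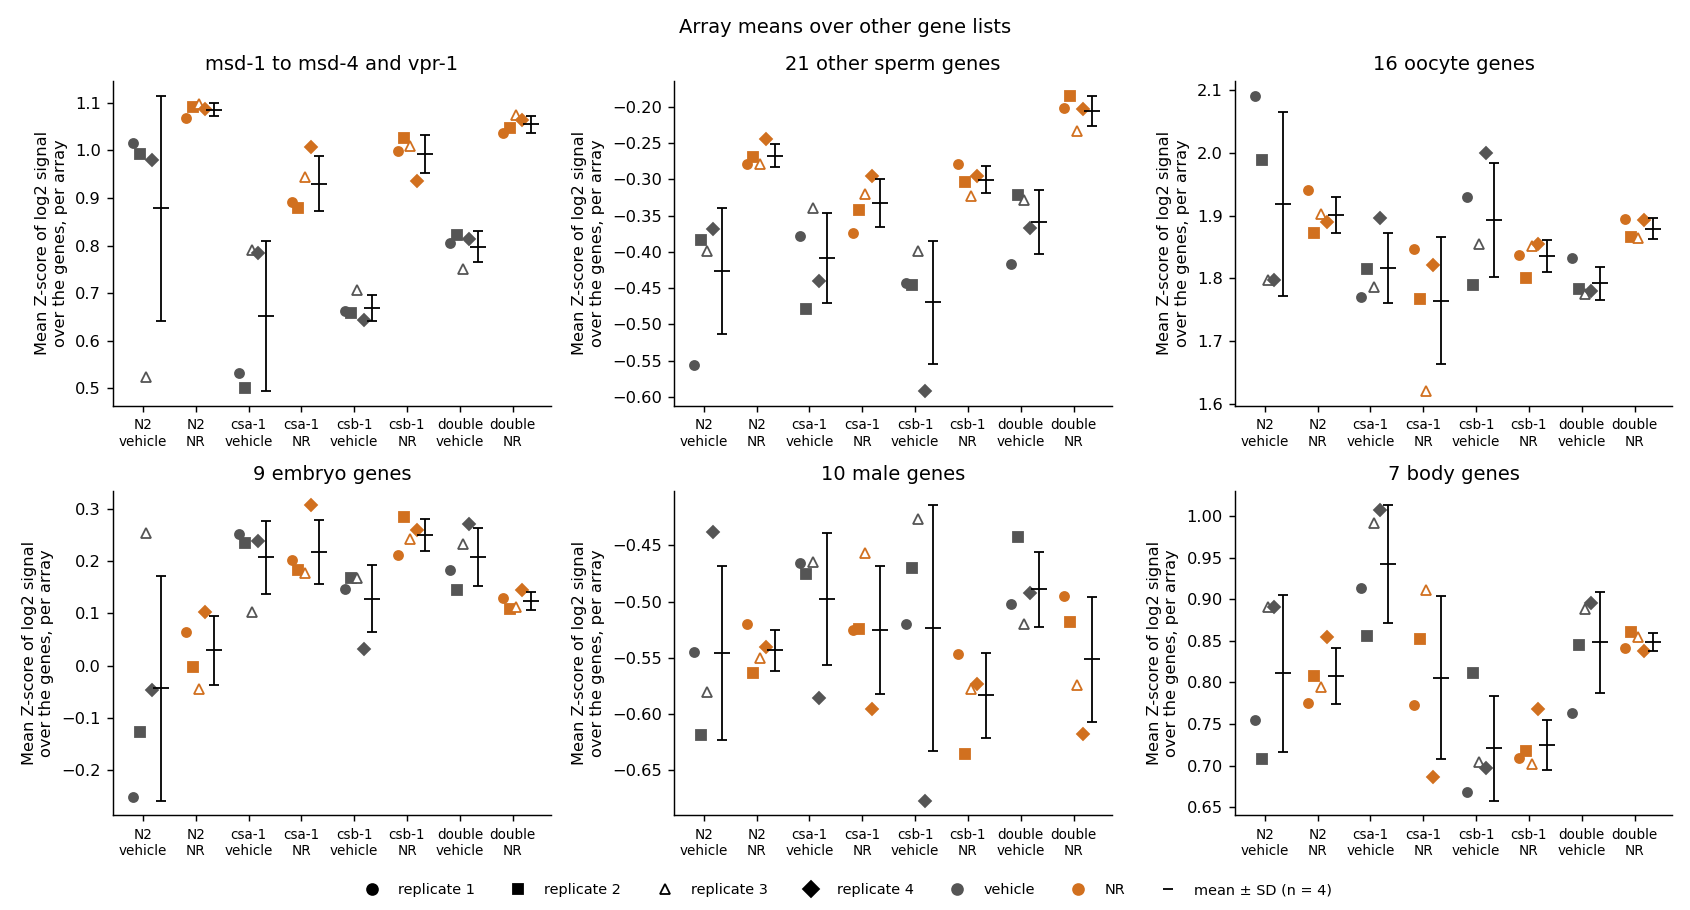
Array means of Z-scores over 5 genes with a major sperm protein domain outside the rule, 21 other sperm genes, and the oocyte, embryo, male and body lists, on each array, with vehicle in grey, NR in orange, a symbol for each replicate number and the mean and SD of each group (n = 4). The embryo list reads 0.25 on N2 vehicle replicate 3 and −0.25 to −0.05 on the other N2 vehicle arrays.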

How the data were processed

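RNA of whole worms was hybridized to 32 single-colour Agilent arrays, and the authors deposited scanner output with an intensity per spot (background-subtracted processed signal) and a table of scores, found to be Z-scores per array within 0.00503. For each array the log2 processed intensity of 43803 gene spots, 1417 control spots left out, was turned into a Z-score, the normalization given in the methods of the study. Probe names were matched to symbols through a RefSeq gene table, and 19792 of 25509 genes matched. The probe with the highest mean stood for a gene. A change of Z-score corresponds to 3.74 on the log2 scale, the average over arrays of the SD of log2 intensity.

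Groups came from the labels. All 8 groups were fitted together with limma (version 3.58.1, R 4.3.3), with Benjamini-Hochberg adjustment over 25509 genes. Calls between groups needed an adjusted p not above 0.05, a Z-ratio of 1.5 or more in either direction and a group mean Z-score over 0, whereas interactions needed the adjusted p alone. The steps were tested on simulated data. Named genes were gsp-3 and gsp-4, the brightest and dimmest probe of each family, for each comparison of 2 groups the 2 called genes with the largest Z-ratio in each direction or else the smallest p, and the 3 closest other genes. Alternatives were scaling by the 75th percentile, quantile normalization, normexp with an offset of 50, the deposited scores, leaving out dim probes (well above background on fewer than 4 arrays), the mean over probes, a fit on the compared groups only, a replicate block, adjusted p alone and leaving out each array. The contrast over the mean of the 4 strains, leaving out N2 vehicle replicates 1 and 3 together, and leaving out the 4 arrays that went against their labels at the csa-1 or csb-1 probe, were added after the data were seen. The members, the gene lists and the tests were chosen with earlier results of these data known. A list of 3 MSP filament genes had no gene with a named probe.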

Additional observations from a re-analysis of the deposited data

Results flagged for a closer look

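In 136 groups of 4 arrays, those of the 16 named genes and of the mean over the 52 genes, the highest or lowest array was singled out where its gap to the nearest other array took up nearly the whole range of the group (Dixon's test for outliers). There were 12 such values, and chance alone gives about 1 in 20 groups. Of these, 6 were single genes on N2 vehicle replicate 3, each the lowest of its group, at Z-scores of 0.0857 for gsp-3, 0.625 for nspd-6, 0.208 for smz-1, 0.471 for msp-38, 0.242 for nspd-7 and 0.354 for nspd-1. The mean over the 52 genes on that array, 0.473, was singled out too. The genes vary together, so these values are not independent of each other.

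Double mutant vehicle replicate 1 was the lowest of its group for gsp-3 (0.266) and msp-142 (0.220). On N2 NR replicate 4 msp-78 was the highest of its group at 2.09. On csa-1 vehicle replicate 2 nspd-8 was the highest at −0.349. On csa-1 NR replicate 3 ssp-19 lay apart at −1.10, in a group where its probe was not well above background on any array.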

How the results depend on the processing

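The count of genes called higher on NR over the mean of the 4 strains was 44 or 45 without any single array, 43 with scaling by the 75th percentile, 44 with quantile normalization and 40 with normexp. Counts in single strains moved more. The share of all genes called is given above for the main fit and for leaving out N2 vehicle replicate 3 or the 4 arrays. For the other alternatives it is not given, so their counts are not set against other genes. On NR in N2, where 2 genes were called, 1 was called with scaling by the 75th percentile, 1 with quantile normalization, 0 with normexp and 0 with the compared groups alone. In csa-1, where 5 were called, the counts were 8 with the 75th percentile, 0 with normexp and 0 with the compared groups alone. With normexp 24 were called in csb-1 and 15 in the double mutant, with the compared groups alone 41 and 43, and with the 75th percentile and with quantile normalization 37 and 39 each. In csb-1 against N2 on vehicle 3 were called with the 75th percentile and 1 with normexp. The cause was not tested.

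Without any single array the counts ran from 0 to 7 on NR in N2, 1 to 20 in csa-1, 23 to 38 in csb-1 and 6 to 27 in the double mutant. On vehicle against N2 they ran from 0 to 34 in csa-1, 0 to 39 in csb-1 and 0 to 8 in the double mutant, and from 0 to 43 for the interaction of csa-1 and csb-1, where the highest counts were those without N2 vehicle replicate 3. Without N2 vehicle replicates 1 and 3 they were 36, 39 and 5, 43 for the interaction and 0 for NR in N2. Under these omissions the comparisons on NR and the tests of the NR response stayed at 0. Without the 4 arrays against their labels the counts were 39, 39 and 8 against N2 on vehicle, 45 for the interaction of csa-1 and csb-1, 1, 39, 41 and 43 on NR in N2, csa-1, csb-1 and the double mutant, 25 for csa-1 against N2 on NR, and 30, 32 and 22 for the NR response of csa-1, csb-1 and the double mutant. With the mean over all probes of a gene the array means were 0.958 in N2 NR, 0.884 in csb-1 NR, 0.696 in double mutant vehicle and 0.981 in double mutant NR. Of the values of single genes 33 lost and 9 gained their call under an alternative, 226 kept their side and 0 changed direction.

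Same-numbered arrays did not deviate together: over 40 pairs the correlation of deviations ran from −0.50 to 0.38 with a median of −0.01. With the replicate number as a block 1 gene was called on NR in N2, 2 in csa-1, 36 in csb-1 and 23 in the double mutant. The arrays with the smallest shares of spots above background (N2 vehicle replicate 1, csb-1 vehicle replicate 4) limit what can be said of the dim ssp and nspd probes, and 10 of the 52 probes were not well above background on every array.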
